A study of Mus musculus with 32 samples.

Results

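The axon guidance families described here are the semaphorins, plexins and neuropilins, the Eph receptors and ephrins, the Slit and Robo families, the netrins, the Unc5 receptors and Dcc. Members were chosen by gene symbol alone: every gene whose symbol starts with Sema, Plxn, Epha, Ephb, Efna, Efnb, Robo, Slit with a digit, Ntn or Unc5, together with Dcc, Nrp1 and Nrp2. These were 96 probes of 74 genes, among 39429 probes of which 27427 carried a gene symbol (20832 genes). They comprised 20 semaphorin genes, 14 Eph receptors, 9 plexins, 8 ephrins, 6 netrins, 4 Robo genes, 4 Unc5 genes, 3 Slit genes, 2 neuropilins and Dcc. The other 3 genes, Unc50, Unc5cl and Plxna4os1, matched by their letters only and are not guidance ligands or receptors.

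Axon guidance molecules are secreted or membrane-bound ligands, and receptors on the growth cone read them as attraction or repulsion. Semaphorins act mostly through plexins, with neuropilins as coreceptors of the secreted class 3. Ephrins bind Eph receptor tyrosine kinases on neighbouring cells and can signal back into the cell that carries them. Slits repel axons through Robo receptors, and netrin-1 attracts through Dcc and repels through Unc5 receptors. In the postnatal forebrain these families also act in synapse formation, in neuronal migration, in blood vessels and in the oligodendrocyte lineage.

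The samples were forebrain hemispheres of NMRI mice, cut anterior to the colliculus and without the olfactory bulb. In the hypoxia-ischemia (HI) groups the right common carotid was ligated permanently under isoflurane at postnatal day 5 (P5) or 10 (P10), the animals were then exposed to low oxygen, and the hemisphere on the ligated side was taken 3, 6, 12 or 24 h later. Naive animals of the same age and time, neither ligated nor exposed, gave the right hemisphere, and RNA of 6 sex-matched animals was pooled for each sample. Each of the 24 HI arrays compared an HI pool labelled with Cy5 with a naive pool labelled with Cy3, 3 arrays for each of 8 groups, and the dyes were never exchanged in this experiment. On another 8 arrays, 4 for P2 and 4 for P15, naive pools of 1 age were hybridised against each other with the dyes exchanged. At P5 and at P10 the arrays of 1 replicate number shared a slide, so that slide and age cannot be told apart when the ages are compared, and since hemispheres were measured in bulk, fewer cells of a type and less RNA per cell cannot be told apart.

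A ratio is given as the log2 of HI over naive, so that a value of 1 stands for a doubling and values below 0 for less RNA after HI. Testing in a group required 2 or more arrays with a ratio and a mean signal of 100 or more in Cy3 or Cy5. It was called higher or lower when limma, adjusted by Benjamini-Hochberg over all probes tested, gave p under 0.05 and the fold change was over 1.5. Of the 96 member probes, 78 (65 genes) were tested in at least 1 group and 58 in all 8. The 18 probes never tested left 9 genes with no tested value: Epha1, Ntn4, Ntn5, Ntng2, Sema3d, Sema3g, Unc5d, Unc5cl and Plxna4os1. On the arrays 57.88% to 84.9% of spots were well above background in Cy3 and 62.19% to 91.89% in Cy5. The SD of the log2 ratios was 0.306 to 0.57 on 23 arrays and 0.917 on replicate 1 of P10 at 24 h, which stood apart. The forebrain genes Neurod6 and Tbr1 were well above background on all 32 arrays, and of the 5 hindbrain genes En2 was on 31, Hoxc5 on 10, Hoxb3 on 8, Hoxb5 on 1 and Hoxa3 on 0 of 32.

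The first 250 bases before the annotated starts of 3 members are shown because Efna1 was called higher in more groups than any other member, Sema4b was called higher at 3 time points at P10, and Slit2 fell at P10. Sequences are from RefSeq on GRCm38.p6, written 5′ to 3′ toward the start. Capitals mark the core that hypoxia-inducible factors can bind, ACGTG or GCGTG read on either strand.
Efna1 start 1 (chr3:89280952-89281201, minus strand): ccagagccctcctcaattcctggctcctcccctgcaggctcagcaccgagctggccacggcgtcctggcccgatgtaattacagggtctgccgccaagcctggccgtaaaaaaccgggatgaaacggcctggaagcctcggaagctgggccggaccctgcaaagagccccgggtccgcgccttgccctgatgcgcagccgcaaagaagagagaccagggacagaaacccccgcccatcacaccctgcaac
Efna1 start 2 (chr3:89279646-89279895, minus strand): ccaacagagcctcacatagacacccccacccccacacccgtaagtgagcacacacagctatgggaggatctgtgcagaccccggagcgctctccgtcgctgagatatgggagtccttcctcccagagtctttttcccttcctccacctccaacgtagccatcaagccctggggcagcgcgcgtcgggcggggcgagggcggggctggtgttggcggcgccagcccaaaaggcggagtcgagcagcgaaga
Sema4b start 1 (chr7:80186620-80186869, plus strand): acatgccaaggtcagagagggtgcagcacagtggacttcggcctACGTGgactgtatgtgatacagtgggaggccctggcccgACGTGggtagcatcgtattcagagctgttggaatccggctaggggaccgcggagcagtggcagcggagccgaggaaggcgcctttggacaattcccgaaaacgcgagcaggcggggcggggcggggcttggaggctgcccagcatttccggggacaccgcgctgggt
Sema4b start 2 (chr7:80198338-80198587, plus strand): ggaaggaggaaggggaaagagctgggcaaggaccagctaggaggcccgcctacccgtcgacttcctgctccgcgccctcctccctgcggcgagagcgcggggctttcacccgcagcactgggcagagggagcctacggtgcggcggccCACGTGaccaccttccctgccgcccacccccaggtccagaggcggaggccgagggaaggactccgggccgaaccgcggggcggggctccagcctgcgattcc
Slit2 start 1 (chr5:47982905-47983154, plus strand): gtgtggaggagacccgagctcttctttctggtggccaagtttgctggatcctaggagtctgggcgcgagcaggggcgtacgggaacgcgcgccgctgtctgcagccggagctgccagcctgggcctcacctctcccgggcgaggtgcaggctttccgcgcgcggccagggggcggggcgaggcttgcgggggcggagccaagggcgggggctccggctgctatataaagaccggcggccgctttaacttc
In Sema4b each of both windows held 2 matches, and in the window of start 2 they overlap, since CACGTG reads as the core on both strands. In the windows of Efna1 and Slit2 these letters did not occur. The core stood in 38.6% of all 32851 windows, in 12 of 28 windows (42.9%) of the member genes called higher at P10, in 5 of 13 (38.5%) of those called lower and in 34 of 79 (43.0%) of all members. A match of letters is a description and not a binding site.

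After HI, 35 member probes of 32 genes were called in at least 1 group, with 63 calls in all. The ephrin Efna1 was higher and the netrin Ntng1, the semaphorin Sema3a, Slit2 and the plexin Plxnb3 were lower, most of them 6 and 12 h after HI. More members were called at P10 than at P5, as was so over all probes tested (4.63% higher and 2.62% lower at P5, 13.6% and 15.7% at P10). With another background correction and dye normalisation, normexp and loess, 24 of the 63 calls were kept and 39 were lost. Those kept include every higher call of 4 probes that share 1 pattern on all arrays, described further on. All higher calls of these 4 probes were lost when a dye offset was subtracted. In 61 of the 63 calls every array lay on the called side of 0, and the other 2 were Efna2 at 24 h and Sema4c at 12 h, both at P10. Tested but never called were 33 genes, among them Epha3, Epha4, Epha8, Ephb1, Ephb2, Plxna1, Plxna2, Plxna4, Plxnd1, Sema3c, Sema3f, Sema7a, Slit1, Ntn1, Unc5a and Unc5c. Their ratios and those of the called probes in other groups lay between -0.58 and 0.68 over 469 tested values.

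At P5, 5 of 75 tested member probes were called higher at some time (6.67%, against 4.63% of all probes tested) and 8 lower (10.7%, against 2.62%). At 3 h, 1 probe was higher (all probes, 1.97%) and 0 lower (all probes, 0.446%). By limma 9 member probes lay below 0 at an unadjusted p under 0.05 in that group, and 4 by the test against zero that the methods name. At 6 h, 1 was higher (all probes, 2.36%) and 3 lower (all probes, 0.996%), and at 12 h, 4 were higher (all probes, 2.95%) and 5 lower (all probes, 1.60%). At 24 h, 0 were higher (all probes, 1.47%) and 1 lower (all probes, 0.374%), with 2 above 0 by limma and 5 by that test at an unadjusted p under 0.05. The median ratio of the tested members was -0.06, -0.11, -0.19 and -0.09 at 3, 6, 12 and 24 h, whereas that of all probes tested was -0.02 to -0.01. Of 7 neuronal marker genes 0, 1, 2 and 1 were called lower at these times and 0 higher, and of 4 erythroid genes 3 were higher at 6 and at 12 h. Of 3 tested neutrophil genes 2 were higher at 6 and at 12 h (medians 1.773 and 2.415). At 6, 12 and 24 h, 1, 1 and 2 of 5 astrocyte genes were higher and 1 of 5 microglial genes was lower. Another microglial gene was higher at 12 and 24 h. The part of these cells in the members' counts at P5 was not tested.

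At P10, 20 of 66 tested member probes were called higher at some time (30.3%, against 13.6% of all probes tested) and 12 lower (18.2%, against 15.7%). At 3 h, 3 probes were higher (all probes, 3.59%) and 0 lower (all probes, 1.39%), with 9 below 0 by limma and 6 by that test at an unadjusted p under 0.05. At 6 h, 9 were higher (all probes, 6.93%) and 9 lower (all probes, 5.97%), and these 18 calls made it the group with the most. At 12 h, 9 were higher (all probes, 5.38%) and 7 lower (all probes, 3.88%). At 24 h, 8 were higher (all probes, 9.31%) and 3 lower (all probes, 9.91%), so that the share of members called lower lay under that of all probes. At 6 h, 3 of 7 neuronal marker genes were also called higher (median 0.45), as were 3 of 5 astrocyte (0.63) and 2 of 3 tested neutrophil genes (0.73), and 2 of 5 microglial genes were lower. Astrocyte markers were likewise higher at 12 and 24 h (3 of 5 each, medians 0.57 and 0.89). Of the cortical neuron and interneuron genes, 4 of each tested at 6 h, 0 were called (medians -0.13 and 0.18). The part of these cells in the members' counts was not tested. The median ratio of tested members stayed near 0 at 3, 6 and 12 h (0.01, 0.07 and 0.02) and was -0.12 at 24 h. Leaving out 4 probes that share 1 pattern on all arrays, described further on, brought the probes called higher to 2 at P5 and 16 at P10.

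**Figure D1:**
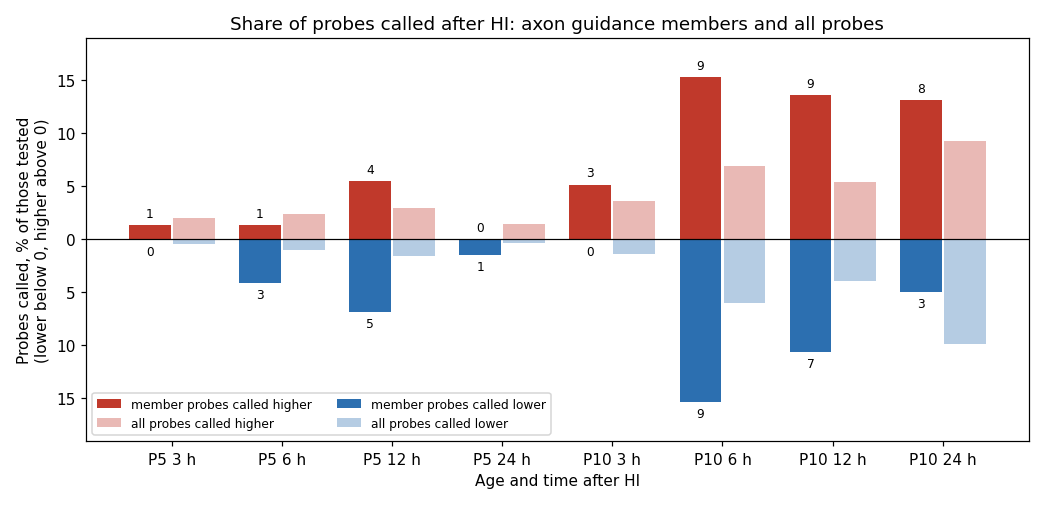
Percent of tested probes called higher (above 0) and lower (below 0) after HI at P5 and P10, by hours after HI, for axon guidance members (dark bars, with the number of probes) and for all probes on the array (pale bars). At P5 at most 5 member probes were called in 1 direction, and at P10 at 6 h there were 9 in each direction.

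Among the ligands that rose, Efna1, which encodes ephrin-A1, a membrane-anchored ligand of EphA receptors, was called in 5 of 8 groups. At P5 its ratio was 1.05, 0.93 and 0.90 on the 3 arrays at 6 h, a mean of 0.96 ± 0.08 (SD, n = 3), or 1.94-fold (adjusted p = 0.000894 by limma). At P10 at the same time it was 0.96, 0.72 and 0.71, a mean of 0.80 ± 0.15 (n = 3; adjusted p = 0.000942). The arrays of both ages overlapped at 6 h, and the difference between ages was not called (-0.16; adjusted p = 0.696). The mean was 0.83 ± 0.44 at 12 h at P5, and at P10 it was 0.98 ± 0.16 at 12 h and 0.78 ± 0.56 at 24 h. The call at 12 h at P5 was lost without its first replicate (0.58), and that at 24 h at P10 without its first replicate (0.46). After normexp and loess the ratios at P10 were 0.56 at 6 h and 0.48 at 24 h, no longer called, and the other 3 calls were kept.

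Sema4b, a membrane-bound semaphorin, was called higher at P10 at 3, 6 and 12 h. The largest ratio was at 3 h, with 0.49, 1.03 and 1.19 on the arrays and a mean of 0.90 ± 0.37 (SD, n = 3), or 1.87-fold (adjusted p = 0.000453). The means at 6 and 12 h were 0.66 ± 0.39 and 0.67 ± 0.27, and both calls were lost without replicate 3 of their group (0.44 and 0.52). None of the 3 calls was kept after normexp and loess, with means of 0.49, 0.38 and 0.42 in time order. At P5 the ratio at 3 h was 0.15 ± 0.25, and its arrays (-0.03, 0.04 and 0.45) did not overlap with those of P10, but the difference between ages was not called (0.75; adjusted p = 0.1).

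Both B-class ephrins called, transmembrane ligands of EphB receptors, were higher at P10 at 6 h. Efnb3 had ratios of 0.58, 1.02 and 0.58, a mean of 0.73 ± 0.26 (SD, n = 3), or 1.66-fold (adjusted p = 3.32e-06), and Efnb1 a mean of 0.61 ± 0.12 (adjusted p = 0.000119). Neither passed the fold limit when its highest array was left out: Efnb3 was 0.58 without replicate 2 and Efnb1 0.56 without replicate 1. Epha7, an EphA receptor, rose at 3 h at P10 on 2 of its probes, by 0.66 ± 0.26 and 0.61 ± 0.24. Those probes followed each other over the 24 arrays (r = 0.896), and their calls fell under the fold limit without replicate 3 (0.55) and without replicate 2 (0.49), respectively. The remaining Epha7 probe did not follow them (r = -0.026 and -0.132). It had the same sign as each in 2 of the 5 groups where both were tested. After normexp and loess the calls of both Epha7 probes (0.44 and 0.39) and of Efnb1 (0.42) were lost, and that of Efnb3 (0.67) was kept.

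Epha2, an EphA receptor that epithelial cells also carry, was a dim probe that passed the signal minimum at 3 h at P5 alone. There its ratio was 1.42, 1.30 and 1.27, a mean of 1.33 ± 0.08 (SD, n = 3), and its mean signal was 45.3 in naive and 114 in HI pools. It reached the signal minimum through the HI channel only, so that it could be tested just where it was high, and although it is among the 63 calls the value is given as a description. The mean was 0.72 after normexp and loess, and without replicate 2 it no longer reached the signal minimum. In the other 7 groups it was not tested. At P5 its mean ratio there was 0.62 to 1.08. At P10 the HI signal was 35.6 to 68.9 and well above background on all 12 arrays, while the naive signal was well above background on only 1 of 12.

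Other receptors were called higher late after HI at P10. Unc5b, a netrin receptor also found on endothelium, was higher at 12 h (0.98, 0.23 and 0.69 on the arrays, mean 0.64 ± 0.38) and at 24 h (1.20, 0.10 and 0.60, mean 0.63 ± 0.55). The first replicate was the highest array in both groups, and neither call held without it (0.46 and 0.35). Robo4, the Robo receptor of endothelial cells, was higher at 12 h with 0.66, 0.15 and 1.47, and not without replicate 3 (0.41). A second probe of Nrp2, a coreceptor of class 3 semaphorins and of VEGF-C, was higher at 12 h by 0.77 ± 0.47, and 0.51 without the first replicate, where it lost the signal minimum. Among the P10 groups this probe was tested at 12 h alone, that is, just where it was called higher. Although it is among the calls counted, its value is given as a description. The brighter probe of Nrp2 read 0.07, -0.00 and -0.02 in that group (mean 0.02 ± 0.05), and both probes had the same sign in 1 of the 5 groups where both were tested. Among 7 endothelial marker genes 2 were called higher at 12 h at P10 (5 tested, median 0.30) and 1 higher and 1 lower at 24 h (4 tested, median -0.14), and their part in these results was not tested.

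At 24 h at P10 the semaphorins Sema4d, Sema5a and Sema5b and the plexins Plxnb1 and Plxnb2 were higher, Plxnb1 being the receptor of Sema4D. Sema5a had ratios of 1.19, 0.92 and 0.63, a mean of 0.91 ± 0.28 (SD, n = 3; adjusted p = 0.000253), and Sema4d had 1.33, 0.56 and 0.64, a mean of 0.84 ± 0.43 (adjusted p = 0.000123). These were the 2 inductions at that time whose call stayed when any single array was left out. Both calls were lost after normexp and loess (0.47 for Sema5a, 0.30 for Sema4d) and when this group was fitted alone (adjusted p = 0.0661 and 0.0723 by limma). Plxnb2 (0.60 ± 0.33), Sema5b (0.69 ± 0.40), Plxnb1 (0.65 ± 0.39) and the Eph receptor Ephb4 (2.27, 0.55 and 0.03 on the arrays, mean 0.95 ± 1.17) lost it without the first replicate, at 0.41, 0.48, 0.56 and 0.29. Plxnb1 lost it also without the second (0.52), and no call of a member higher at that time was kept after normexp and loess. Dcc, the attractive netrin receptor, was lower at that time at -1.64, -0.60 and -0.25 (mean -0.83 ± 0.72), and the ephrin Efna2 at -2.63, -0.95 and 0.03 (mean -1.18 ± 1.35; adjusted p = 0.00637). With this group fitted alone no member call at 24 h at P10 was kept, and the adjusted p by limma was 0.121 for Dcc and 0.176 for Efna2. Both repressions rested on the first replicate, the array with the widest spread of ratios, and were -0.43 and -0.46 without it.

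**Figure D2:**
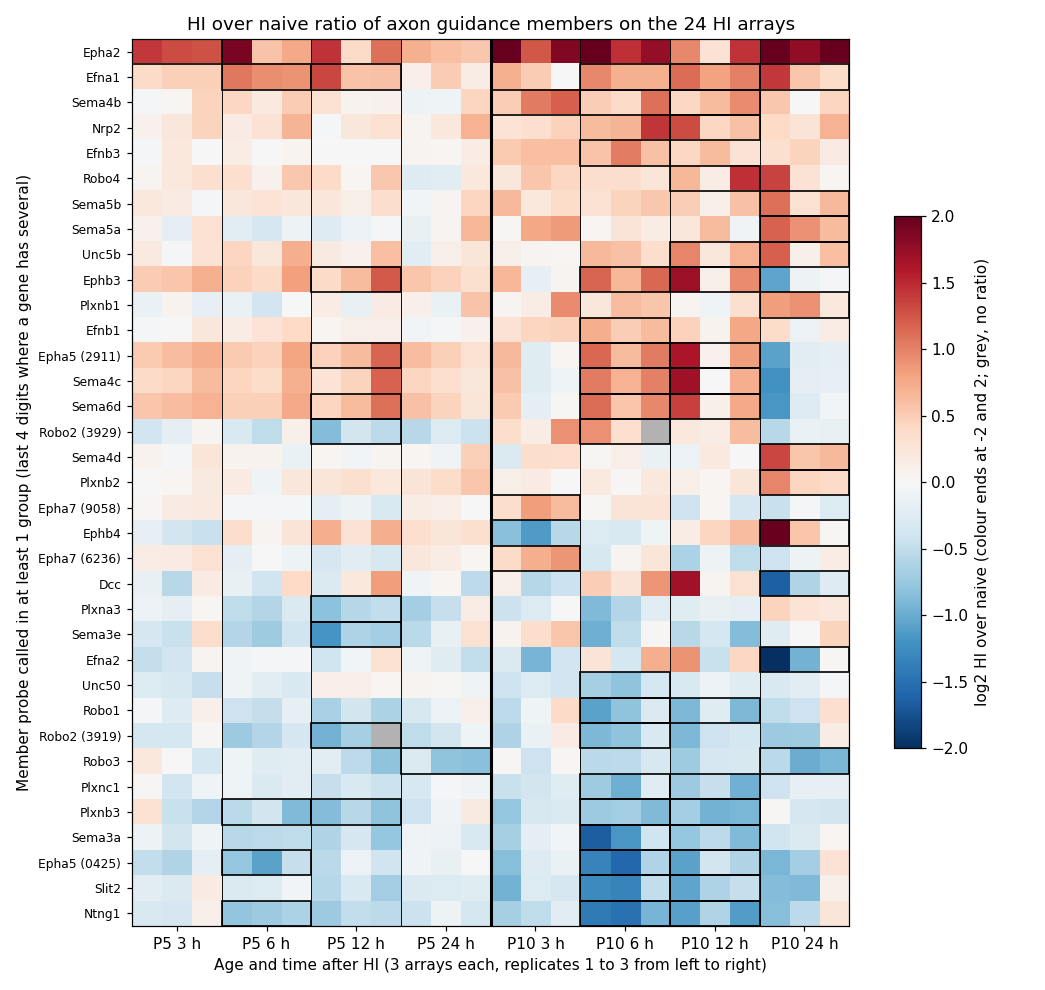
log2 HI over naive ratio of the 35 member probes called in at least 1 group (rows, ordered by their mean at P10) on the 24 HI arrays (columns, 3 replicates per age and time point; colour ends at -2 and 2, grey where no ratio was given). Black frames mark called groups; most frames at P10 lie at 6 and 12 h, and at P10 and 24 h Ephb4 and Efna2 are strongest on the first array.

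Among the members called lower 6 and 12 h after HI were the ligands Ntng1, Sema3a and Slit2 and the receptors Robo1, Plxnb3 and Plxnc1. Ntng1, which encodes netrin-G1, a membrane-anchored netrin that does not bind Dcc, was lower at 6 h at both ages. At P10 its ratio was -1.42, -1.49 and -0.93, a mean of -1.28 ± 0.30 (SD, n = 3; 2.42-fold lower; adjusted p = 6.96e-06). At P5 it was -0.79, -0.72 and -0.64, a mean of -0.72 ± 0.08 (adjusted p = 0.00496). All P10 arrays lay below all P5 arrays at 6 h, but the difference between ages was not called (-0.56; adjusted p = 0.111). At 12 h at P10 the mean was -0.94 ± 0.29, and no call of Ntng1 was lost when any single array was left out. Ntng1 lost its call at 12 h at P10 when that group was fitted alone (adjusted p = 0.0549 by limma). With normexp and loess it was -0.90 and -0.68 at P10, still called, and -0.48 at 6 h at P5, not called.

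Sema3a, a secreted repellent that acts through Nrp1 and A-type plexins, fell at P10 at 6 h (-1.64, -1.17 and -0.40, mean -1.07 ± 0.63; 2.1-fold lower; adjusted p = 4.25e-05). At 12 h it was -0.72 ± 0.18 (SD, n = 3; adjusted p = 0.00193), and neither call was lost without any single array. With its group fitted alone the call at 12 h was lost (adjusted p = 0.0566 by limma). At P5 the means at 6 and 12 h were -0.53 ± 0.02 and -0.57 ± 0.21, under the fold limit. Its other probe was too dim to be tested. Slit2, a secreted repellent of Robo-bearing axons, fell at P10 at 6 h with -1.27, -1.34 and -0.49, a mean of -1.03 ± 0.47 (2.04-fold lower; adjusted p = 0.000215), and at 12 h by a mean of -0.71 ± 0.30. The call at 12 h was lost without the first replicate (-0.54). After normexp and loess Slit2 was -0.55 at 6 h and -0.41 at 12 h, with both calls lost, and Sema3a was -0.60 at 6 h, still called, and -0.49 at 12 h, not called.

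Of the Slit receptors, Robo1 was lower at P10 at 6 h (-1.06, -0.80 and -0.29 on the arrays, mean -0.72 ± 0.39) and at 12 h (-0.90, -0.24 and -0.90, mean -0.68 ± 0.38). Both calls were lost without the first replicate (-0.55 and -0.57), and the latter also without replicate 3 (-0.57). Robo3, a Robo family receptor known from commissural axons, was lower at 24 h at both ages, at P10 by -0.82 ± 0.24 with every array at -0.54 or below (adjusted p = 0.00013) and at P5 by -0.28, -0.80 and -0.83 (mean -0.64 ± 0.31; adjusted p = 0.00746). The arrays of both ages overlapped, the difference was -0.18 (adjusted p = 0.524), and the P5 call was lost without replicate 2 (-0.56) or 3 (-0.54). No call of Robo1 or Robo3 was kept after normexp and loess, with Robo3 at -0.37 at P10 and -0.21 at P5.

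Robo2 gave different answers on its 2 probes. Probe A_55_P2083919 was lower at 6 h at P10 (-0.90, -0.80 and -0.30, mean -0.67 ± 0.32), and -0.55 without replicate 1, where the call was lost. At 12 h at P5 it was lower on the 2 arrays that gave a ratio (-0.95 and -0.67). Probe A_55_P2083929 was also lower at 12 h at P5 (-0.87, -0.38 and -0.52, mean -0.59 ± 0.25), and -0.45 and -0.62 without replicates 1 and 3, where the call was lost. At 6 h at P10 it was higher on 2 arrays (0.92 and 0.34, mean 0.63 ± 0.41), and replicate 3 gave no ratio. Calls made on 2 arrays were lost when either was left out. The probes had the same sign in 5 of 8 groups, with a largest gap of 1.30 at P10 at 6 h.

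Of the plexins, Plxnb3, which is expressed in the oligodendrocyte lineage, was lower in 4 groups. At 12 h its ratios were -0.67, -0.94 and -0.92 at P10 (mean -0.85 ± 0.15; 1.8-fold lower; adjusted p = 0.000317) and -0.86, -0.55 and -0.80 at P5 (mean -0.74 ± 0.17; adjusted p = 0.00232). The ages overlapped, with a difference of -0.11 (adjusted p = 0.823). At 6 h the means were -0.77 ± 0.10 at P10 and -0.60 ± 0.26 at P5, and the latter call was lost without replicate 2, where it fell under the signal minimum, or replicate 3 (-0.46). All 4 calls were lost after normexp and loess, where Plxnb3 read -0.42 and -0.46 at P10 and -0.20 and -0.42 at P5 for 6 and 12 h. At these times the ratios of 6 oligodendrocyte marker genes ranged from -0.42 to 0.75, with medians between -0.17 and 0.30, and their part in this result was not tested. Plxnc1, the receptor of Sema7A, was lower at P10 at 6 h (-0.70, -0.98 and -0.25, mean -0.64 ± 0.37) and at 12 h (-0.72, -0.47 and -0.97, mean -0.72 ± 0.25), and the call at 6 h was lost without replicate 2 (-0.47). Both Plxnc1 calls were lost after normexp and loess (-0.449 and -0.465). That at 12 h was also lost when its group was fitted alone (adjusted p = 0.0598 by limma). Of all member calls at 12 h at P10, that fit kept only those of Efna1 (adjusted p = 0.0453) and Plxnb3 (adjusted p = 0.0498).

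At P5 the other repressions were Plxna3, a plexin of class 3 semaphorin receptors, and Sema3e, a ligand of Plxnd1. At 12 h Plxna3 fell by -0.63 ± 0.17 and Sema3e by -0.83 ± 0.30. Both calls were lost without the first replicate, at -0.53 and -0.65, and after normexp and loess, at -0.50 and -0.43. Unc50, which matched by letters only, was lower at P10 at 6 h by -0.60 ± 0.23 (adjusted p = 9.1e-06) and -0.58 or -0.51 without replicate 1 or 2. After normexp and loess Unc50 was at -0.54, under the fold limit.

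**Figure D3:**
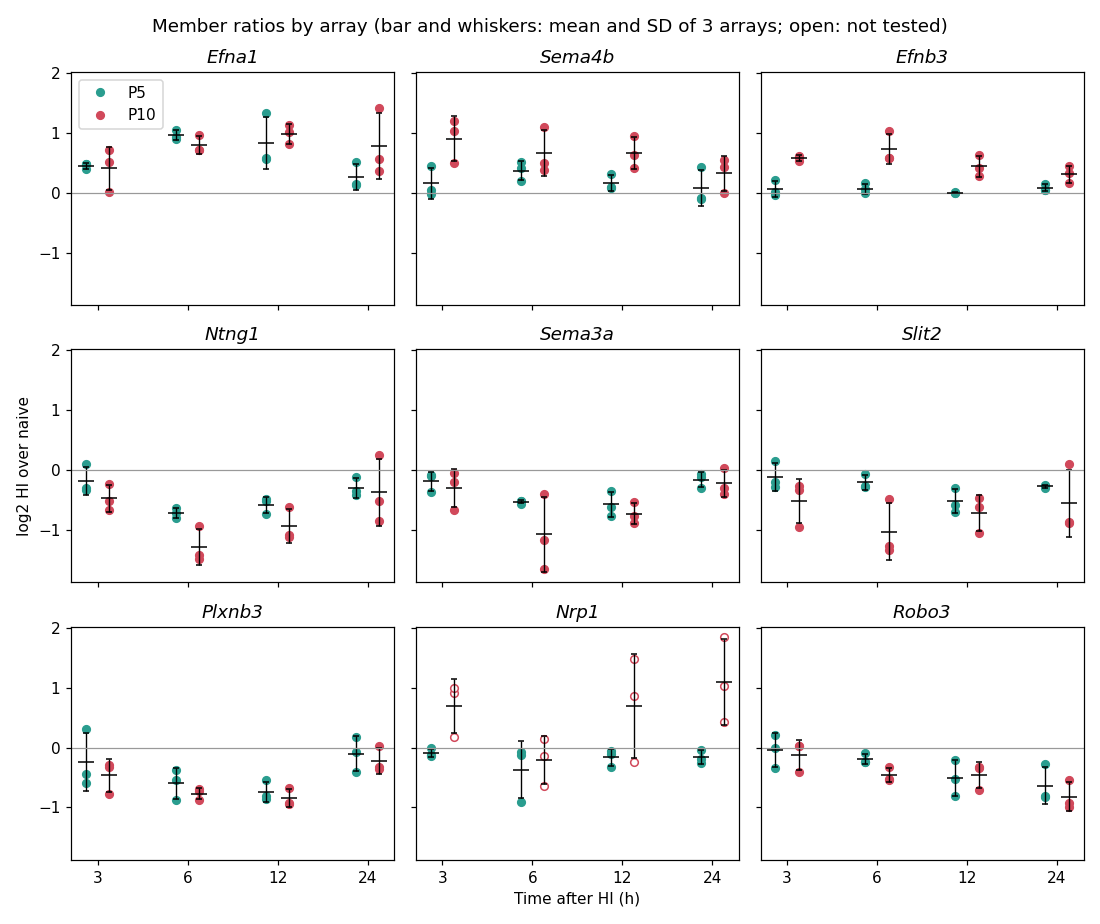
log2 HI over naive ratio of 9 members on each array (points) at P5 (green) and P10 (red) by hours after HI, with the mean and SD of 3 arrays (bar and whiskers); open points were not tested. At 6 h all arrays of Efna1 lie above 0 and all arrays of Ntng1 and Plxnb3 below 0 at both ages, and Nrp1 at P10 has open points only.

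In Epha5, an EphA receptor of cortical and hippocampal neurons, the probes opposed each other. Probe A_55_P2100425 was lower at 6 h at P10 (-1.33, -1.57 and -0.60, mean -1.17 ± 0.50; 2.24-fold lower; adjusted p = 0.000204), at 12 h at P10 (mean -0.68 ± 0.35) and at 6 h at P5 (-0.78, -1.07 and -0.47, mean -0.77 ± 0.30). The last 2 calls were lost without their first replicate (-0.49 and -0.77), the one at P10 also without replicate 3 (-0.72) and the one at P5 without replicate 2 (-0.62). Probe A_55_P2062911 was higher at 6 h (1.15, 0.64 and 1.04, mean 0.94 ± 0.27) and 12 h (1.63, 0.09 and 0.83, mean 0.85 ± 0.77) at P10 and at 12 h at P5 (0.46, 0.63 and 1.16, mean 0.75 ± 0.37). Over 8 groups both probes had the same sign in 1, and the largest gap was 2.11 at P10 at 6 h.

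The higher Epha5 probe followed 1 probe each of Ephb3, Sema4c and Sema6d on the 24 arrays almost exactly, with r of 0.981 to 0.996 over the 6 pairs. Ephb3 is a receptor of B-class ephrins, and Sema4c and Sema6d are membrane-bound semaphorins. At P10 at 6 h the ratios were 1.17, 0.67 and 1.15 for Ephb3, 1.04, 0.69 and 1.00 for Sema4c and 1.11, 0.56 and 0.96 for Sema6d, and each was called higher there and at 12 h. At 12 h at P5 Ephb3 (0.74 ± 0.43) and Sema6d (0.72 ± 0.35) were also called. No call at 6 h at P10 was lost without any single array. At 12 h at P5 the calls of Epha5 and Ephb3 were lost without any of the 3 arrays (0.55 to 0.90 and 0.50 to 0.92) and that of Sema6d without replicate 2 or 3 (0.76 and 0.53). At 12 h at P10 all 4 were lost without replicate 1 (0.35 to 0.53), and those of Sema4c and Sema6d without replicate 3 (0.84 and 0.74). At 12 h at P10 all 4 were high on the first array (1.37 to 1.72) and near 0 on the second (-0.01 to 0.11), and at 24 h the first array was lowest for each (-1.06 to -1.21).

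This pattern was not confined to the family. Of 21833 probes with a ratio on all 24 arrays, 761 others (3.49%, 380 named genes) followed the mean of the 4 with r over 0.9, and 1 was another member, the Dcc probe called at 24 h (r = 0.915). Just under that limit were the members Efna2 (r = 0.894), also called lower at 24 h at P10, and Sema6a (r = 0.882). The closest of the 761 were Mtfr2, Btn1a1, I730030J21Rik and Synpo2l (r of 0.997 to 0.998). On the 8 arrays that compared naive pools of 1 age with each other, the 4 probes also read higher in Cy5 than in Cy3, by 0.61 for Epha5, 0.52 for Ephb3, 0.45 for Sema4c and 0.60 for Sema6d, and all 8 arrays lay above 0 for each. The median of all probes there was 0.00, and 1.25% of all probes and 13.9% of the 761 exceeded 0.4. With this dye offset subtracted none of the 4 was called higher at any time, and at P10 at 6 h the Epha5 probe went from 0.94 to 0.34 (adjusted p = 0.235). At 24 h at P10, where their ratios of -0.53 to -0.40 had not been called, the same step left all 4 called lower, at -1.09 for Epha5, -0.92 for Ephb3, -0.98 for Sema4c and -1.10 for Sema6d (adjusted p of 0.000389 to 0.00375). Efna1, Ntng1, Slit2 and Sema3a had offsets of -0.03 to 0.04. Other called members had larger offsets, such as 0.23 for Sema5a, 0.20 for Sema5b and -0.15 for Plxnb1. With the offset subtracted, Unc5b, Sema5b and Plxnb2 fell under the fold limit at P10, as did Sema4b at 6 and 12 h. At P5 the same held for Plxna3, for Robo3 and for Plxnb3 at 6 h.

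**Figure D4:**
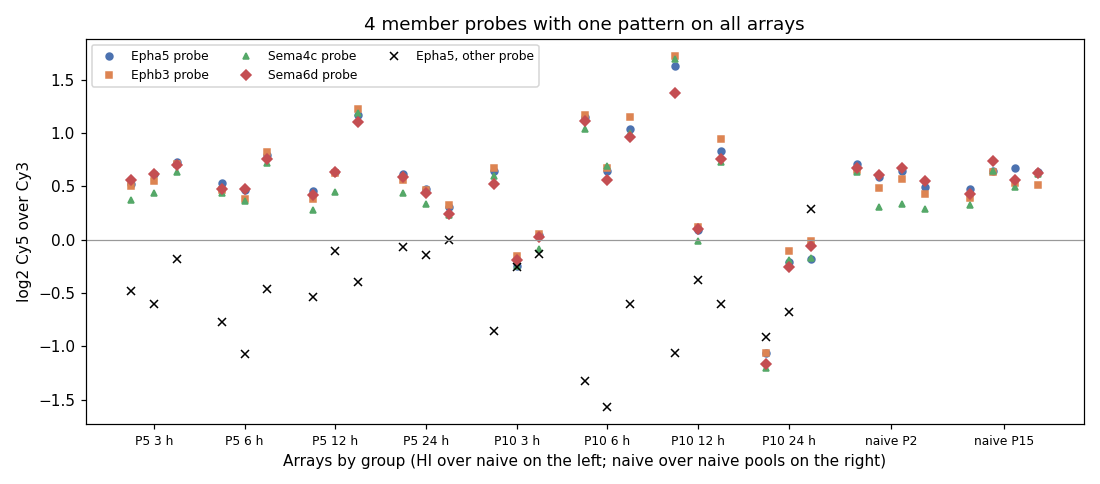
log2 Cy5 over Cy3 on each array for the probes of Epha5 (A_55_P2062911), Ephb3, Sema4c and Sema6d that share 1 pattern and for the other Epha5 probe (crosses, HI arrays only); on the left HI over naive, on the right naive over naive pools at P2 and P15. The 4 probes move together on every HI array and lie above 0 on all 8 naive arrays, and the crosses lie below 0 at 6 h.

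The difference between the HI effects at P10 and P5 was tested directly at each time point. Over 78 member probes it was called for 8 (any time; all probes, 9.17%), 7 with P10 above P5 and 1 below. The members lay slightly toward P10 at every time, with medians of 0.11, 0.14, 0.15 and 0.13 at 3, 6, 12 and 24 h. At 3 h 0 probes were called by limma, and at an unadjusted p under 0.05 there were 18 above and 2 below. With the replicate number as a block, 13 probes were called. Since each age lay on its own slides, age and slide cannot be told apart.

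At 6 h Efnb3 was at 0.15, -0.01 and 0.06 on the P5 arrays against 0.58, 1.02 and 0.58 at P10, without overlap, a difference of 0.66 ± 0.12 (SE; adjusted p = 0.00392). It was 0.51 without the second P10 replicate, under the fold limit. Efna5, an ephrin-A ligand of topographic maps, was at -0.59, -0.44 and -0.09 at P5 and 0.30, 0.28 and 0.18 at P10, also without overlap, a difference of 0.62 ± 0.14 (adjusted p = 0.00866). Neither age alone passed the fold limit for Efna5, and without the first P5 replicate the difference was 0.52. Slit2 went the other way, with -0.28, -0.27 and -0.06 at P5 and -1.27, -1.34 and -0.49 at P10, a difference of -0.82 ± 0.26 (adjusted p = 0.0469). The Robo2 probe A_55_P2083929 was higher at P10 than at P5 by 0.86 ± 0.25 at 6 h (adjusted p = 0.033; P5 arrays -0.31, -0.50 and 0.11, P10 arrays 0.92 and 0.34) and by 0.91 ± 0.22 at 12 h (adjusted p = 0.0367), where the P10 arrays read 0.21, 0.15 and 0.62. Both Robo2 differences and that of Slit2 were lost in 3 to 5 of the removals of a single array of their groups, among them replicate 1 at P5 (0.83 and 0.77 for Robo2, -0.86 for Slit2). After normexp and loess the difference of Efnb3 was 0.84 and that of Robo2 at 12 h 0.69, both still called, and those of Efna5 (0.51), Slit2 (-0.52) and Robo2 at 6 h (0.58) were under the fold limit.

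At 24 h the 4 differences that passed were those of Sema4d, Plxna3 and both neuropilins. Sema4d was at 0.04, -0.08 and 0.47 at P5 and all above at P10, a difference of 0.70 ± 0.19 (SE; adjusted p = 0.0359). Plxna3 was at -0.67, -0.47 and 0.14 at P5 and 0.45, 0.27 and 0.22 at P10, a difference of 0.64 ± 0.18 (adjusted p = 0.0387). For Nrp2 the brighter probe was at -0.30, -0.15 and 0.20 at P5 and 0.98, 0.38 and 0.27 at P10, a difference of 0.62 ± 0.19 (adjusted p = 0.0491). Nrp1, the main class 3 semaphorin coreceptor, was at -0.26, -0.20 and -0.03 at P5 and 1.84, 1.03 and 0.42 at P10, a difference of 1.26. Its P10 signals were 16.3 in naive and 31.4 in HI pools, both under the signal minimum, and the naive signal was well above background on 1 of 3 arrays, so that this difference is given as a description although it is among the 8 probes counted. After normexp and loess the 4 differences were 0.22 for Sema4d, 0.25 for Plxna3, 0.41 for Nrp2 and 0.16 for Nrp1, and 0 of them were called. Without replicate 1 at P10 the differences were 0.45, 0.57, 0.40 and 0.89 and were not called. Each was also lost without replicate 1 or replicate 2 at P5, at 0.64 and 0.59 for Sema4d, 0.47 and 0.57 for Plxna3, 0.51 and 0.59 for Nrp2 and 1.21 and 1.24 for Nrp1. Either removal left 3 member probes with a called difference.

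In naive hemispheres more member probes were called lower than higher at P15 against P2. Of 73 member probes tested (62 genes), 24 were lower at P15 (32.9%, against 10.9% of all probes) and 3 higher (4.11%, against 11.3%), on log2 Cy3 signals scaled to the 75th percentile of each array, with 4 arrays per age and a call at an adjusted p under 0.001 and a change of at least 2-fold. The median change of members was -0.79, whereas that of all probes was 0.04. Lower were 5 of 14 Eph receptor probes, 4 of 9 ephrin, 6 of 20 semaphorin, 4 of 11 plexin, 2 of 3 neuropilin, 2 of 3 netrin and 1 of 5 Robo probes, and no probe of Dcc, the Slit genes or the Unc5 genes. The other 46 tested probes were not called. The arrays at P2 and P15 shared slides, so this comparison lies within slides. Its SE and p-values rest on the spread within ages over all 32 arrays, those at P5 and P10 included.

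Sema4b fell most, from 1.04, 1.20, 1.47 and 1.47 at P2 to -1.12, -1.56, -1.62 and -1.78 at P15, a change of -2.82 ± 0.31 (SE; 7.05-fold lower; adjusted p = 3.23e-09). Nrp2 fell from 3.40, 3.58, 3.59 and 3.91 to 0.73, 0.81, 1.01 and 1.12, a change of -2.70 ± 0.50 (adjusted p = 3.75e-05). Efnb1 fell from between 1.95 and 2.42 to between -0.70 and -0.18, a change of -2.56 ± 0.36 (adjusted p = 4.01e-07). In these genes the arrays of both ages did not overlap. Plxna3 changed by -2.40 ± 0.36 (P2 1.27 to 1.54, P15 -1.08 to -0.80) and Efna4 by -2.35 ± 0.21 (P2 -2.42 to -2.04, P15 -4.68 to -4.40).

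Plxnb3 and Robo3 rose. Plxnb3 went from -4.63, -4.54, -4.54 and -4.11 at P2 to -0.50, -0.43, -0.27 and -0.14 at P15, a change of 4.12 ± 0.23 (SE; 17.4-fold; adjusted p = 9.44e-16). Robo3 went from -5.15, -5.11, -4.56 and -4.42 to -1.43, -1.25, -0.97 and -0.97, a change of 3.65 ± 0.22 (12.6-fold; adjusted p = 5.25e-15). Among the marker lists all 6 oligodendrocyte genes, 5 of 5 microglial, 4 of 5 astrocyte and 3 of 3 tested neutrophil genes were called higher at P15 on at least 1 probe. Lower were 4 of 5 cortical neuron, 2 of 4 interneuron and 2 of 4 tested choroid plexus genes, and the part of these lists in the members' changes was not tested. Unc50 also rose by 1.20 ± 0.29.

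The levels at P5 and P10 lie on other slides and are given as values. Over the 12 naive channels of each age the median level of Sema4b was 0.43 at P5 and -2.06 at P10, that of Nrp2 3.37 and -0.51, that of Efnb1 1.48 and -1.07 and that of Plxna3 1.75 and -1.43. In these 4 genes the P10 median lay below that at P15. Plxnb3 was at -2.39 and -1.43, between its levels at P2 and P15, and Robo3 at -2.41 and -1.10, where the P10 median came to that at P15 (-1.11). At P5 slide 3 stood apart. Over 18917 probes its arrays correlated at 0.912 to 0.943 with those of slides 1 and 2, which correlated at 0.982 to 0.988 with each other. Of 73 member probes 60 were lowest on that slide, 35 of them by more than 1 on the log2 scale, with a median gap of 0.98, whereas over all 18857 probes 11.1% were lower there and 21.5% higher by more than 1. Without that slide 29 member probes were called lower and 3 higher at P15 than at P2, and after HI at P5 1 probe was called higher and 7 lower.

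**Figure D5:**
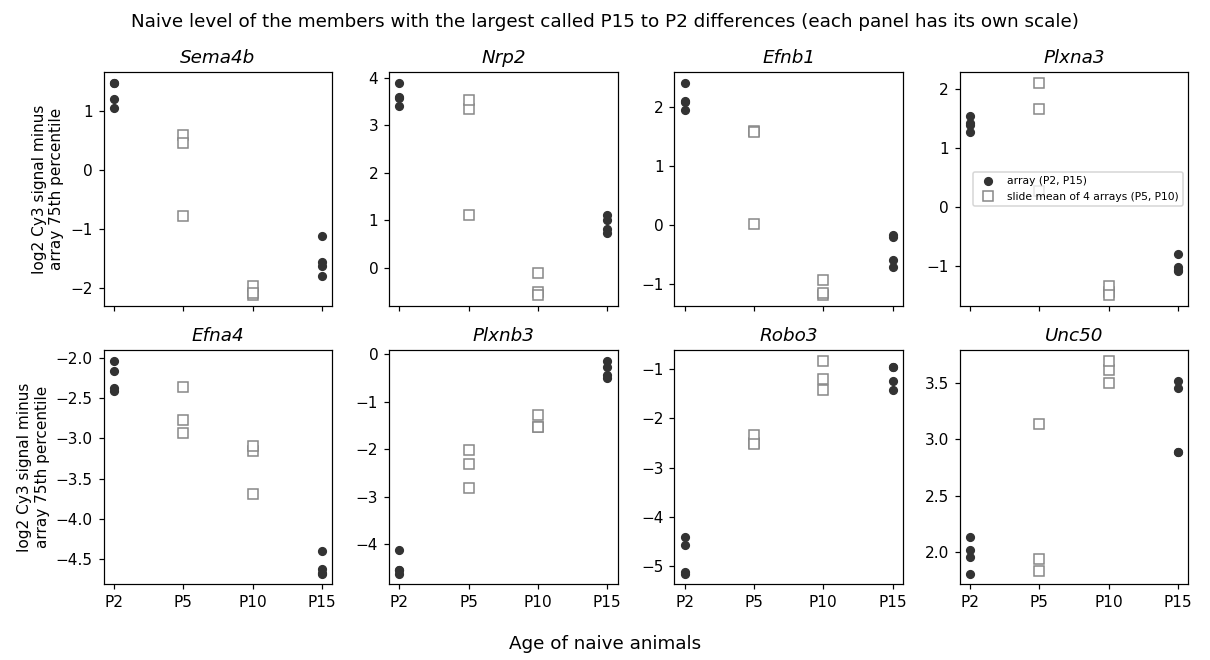
log2 Cy3 signal minus the 75th percentile of the array in naive hemispheres at P2 and P15 (filled points, 1 array each) and P5 and P10 (open squares, the mean of 4 arrays of 1 slide) for the members with the largest called changes from P2 to P15; each panel has its own scale. Sema4b, Nrp2, Efnb1, Plxna3 and Efna4 fall, Plxnb3, Robo3 and Unc50 rise, and at P5 the lowest square of Sema4b, Nrp2, Efnb1 and Plxna3 lies well below the rest.

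Set beside the response to HI, the 3 probes that rose with age (Plxnb3, Robo3 and Unc50) were all called lower after HI at P10 and 2 of them at P5, where over all probes that rose with age 18.4% and 6.02% were. Of the 24 that fell with age, 5 were called higher and 2 lower after HI at P10 (all such probes, 19.5% and 6.46%), and 0 higher and 2 lower at P5 (3.06% and 3.68%). Of the 46 not called with age, 15 were higher and 7 lower at P10 (1942 and 1635 of 14981 over all probes), and 4 higher and 4 lower at P5 (3.39% and 1.87%). These are counts of few probes and carry no test. The naive channels of the HI arrays enter the fit of the levels and, through its spread, the p-values, but not the P15 minus P2 difference itself.

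The intracellular effectors that carry signals from these receptors were looked at as a list of 39 genes. At P5, 1 was called lower at 3 h and 1, Kalrn, at 12 h (-0.84). At P10 3, 6, 4 and 9 genes were higher at 3, 6, 12 and 24 h and 0, 2, 1 and 2 lower, with list medians of 0.15, 0.13, 0.06 and 0.20. These were counts over 37 to 38 tested genes, beside 3.59%, 6.93%, 5.38% and 9.31% of all probes higher and 1.39%, 5.97%, 3.88% and 9.91% lower. A gene was counted when any of its probes was called. The gene counts and the shares of probes thus differ in unit, here, from P2 to P15 and in the next list. Alternative runs and single-array removals were read out for members only, so the calls in this list and the next carry no such check. Dpysl3, a CRMP protein of the semaphorin response of growth cones, was higher at all 4 times at P10 (0.74, 1.31, 1.03 and 0.72), and Rhoa, the GTPase behind growth cone collapse, at 6, 12 and 24 h (0.64, 0.66 and 0.84). Crmp1 was higher at 3 and 6 h (0.76 and 0.79), and Rasa1, a Ras GTPase-activating protein, lower at 6 and 12 h (-0.99 and -0.65). From P2 to P15 in naive hemispheres 12 of 38 tested effectors fell and 3 rose, where 10.9% of all probes fell and 11.3% rose.

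Of 19 other guidance cues and coreceptors, such as Rgma, Neo1, L1cam and Cxcl12, at most 1 was higher and 2 were lower in any group, with 14 to 16 genes tested and the same shares of all probes as background. Flrt2, which encodes a repellent ligand of Unc5 receptors, was called in 3 groups over its 2 probes. Its brighter probe was lower at 3 h at P5 (-0.81) and at 6 h at P10 (-0.98). Flrt1 was higher at 6 and 12 h at P10 (0.70 and 0.64). From P2 to P15 in naive hemispheres 6 of 17 of these genes fell and 0 rose.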

How the data were processed

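RNA was measured on Agilent 4x44K mouse arrays, 24 comparing HI with naive pools and 8 comparing naive pools. Per the file headers and the submitters' processing notes, the authors extracted spots with Agilent Feature Extraction 10.5.1.1, which subtracted background and corrected the dyes by Lowess within each array to give a processed intensity per dye. The deposited log10 ratio is that of Cy5 over Cy3, and the series table holds the same ratios. Here these were turned to log2, control and outlier spots were left out, and spots of 1 probe were averaged. No spot was saturated.

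Genes were named by matching the accession that the arrays give for each probe to a RefSeq gene list, and accessions with several symbols were left without a symbol. HI ratios were fitted with limma 3.58.1 in R 4.3.3 over 24 arrays, 1 coefficient for each of 8 groups, and P10 minus P5 contrasts were taken from that fit. Naive levels were the log2 Cy3 intensity minus the 75th percentile of each array, over 32 arrays, where levels at P5 and P10 are values with no test. Adjustment was by Benjamini-Hochberg over all probes tested. Scripts were tested on simulated data. Python 3.11.15 was used for tables.

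Array values are given for genes with a probe called in 2 or more of 8 groups, called in 1 group at a log2 ratio of at least 1, with probes called in opposite directions or with a called age difference, and for the 5 largest naive changes in each direction. Other called members are given more briefly. The members and gene lists were chosen with earlier results of these data known. Alternatives were the filter, the fit, blocks, dye offset, background correction, the methods' t-tests and leaving out each array. Leaving out the shared-pattern probes and the third P5 slide were chosen after seeing the data.

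Samples were grouped by the labels, which call them biological replicates. The p-values measure the spread between arrays within groups, taken over the 24 HI arrays or, for P15 against P2, over all 32 arrays. The spread used for P15 against P2 thus also holds the gap of the third P5 slide. The number of pools limits the precision. Same-numbered arrays of 1 age shared a slide. Their deviations from the group means correlated at 0.07 to 0.55 at P5, -0.45 to 0.59 at P10 and 0.15 to 0.40 between P2 and P15.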

Additional observations from a re-analysis of the deposited data

Results flagged for a closer look

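The effect of HI differed between P10 and P5 by the test of the difference itself in 9 cases, given as P10 minus P5 of the log2 ratio. At 6 h these were Robo2 on probe A_55_P2083929 (0.865), Slit2 (-0.825), Efna5 (0.624) and Efnb3 (0.66), and at 12 h the same Robo2 probe (0.914). At 24 h they were Nrp1 (1.259), Nrp2 (0.622), Plxna3 (0.642) and Sema4d (0.698). The value of Nrp1 is a description: at P10 its naive signal was well above background on 1 of 3 arrays, its signals lay under the minimum for a test there, and after normexp and loess the difference was 0.16. Age and slide cannot be told apart in any of them. Among 16 groups of 4 naive arrays tested for a sample far from the others there were 0 such samples.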

How the results depend on the processing

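None of the 63 calls after HI changed direction in its own group under any alternative run. With the dye offset subtracted, the 4 shared-pattern probes lost their higher calls and were called lower at P10 at 24 h. That step gave 14 probes called higher and 17 called lower at P10. Calls of other members, such as Unc5b, Sema5b and Plxnb2, were lost in it too. Member probes called higher after HI at P5 (5) became 3 without a signal filter, 2 with the dye offset subtracted, 2 without the 4 shared-pattern probes, 1 without the third P5 slide and 0 with the methods' t-test adjusted by Benjamini-Hochberg (5 unadjusted). Those called lower at P5 (8) became 4 after normexp and loess and 0 with the adjusted t-test (5 unadjusted). At P10 those called higher (20) became 10 when each group was fitted alone, 7 after normexp and loess and 0 with the adjusted t-test (11 unadjusted), and those called lower (12) became 5, after normexp and loess, and 0 (6 unadjusted). The 7 called higher at P10 after normexp and loess include the 4 shared-pattern probes. The age differences (8) became 3 without a signal filter, 5 with slide as a random block and 4 after normexp and loess. The causes were not tested.

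Leaving out each array in turn gave 2 to 6 higher and 4 to 9 lower at P5, 17 to 22 higher and 10 to 16 lower at P10, and 3 to 17 age differences. The low counts at P5 were without replicate 2 or 3 at 12 h (2 higher) and replicate 1 at 12 h (4 lower), and the 17 came without replicate 3 of P10 at 24 h. Of the 63 calls, 22 were lost in no removal. Between naive P2 and P15 the counts stayed at 19 to 31 lower and 2 to 3 higher over all alternatives.

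With the replicate number as a block, which pairs arrays of 1 slide, the age differences rose from 8 to 13 and the HI counts stayed at 5, 8, 20 and 12. Between P2 and P15 the block gave 30 lower and 3 higher. Dim probes such as Epha2 and Nrp1 are limited by signal over background.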
